A study of Mus musculus with 12 samples.

Results

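The transcripts described here are those of Pparg, the gene of the nuclear receptor PPARγ, and of 9 genes that move fatty acids from the blood into heart cells or that belong to the same regulatory circuit: Lpl, Gpihbp1, Cd36, Fabp3, Fabp4, Fabp5, Meox2, Tcf15 and Adipoq. They were found by gene symbol in the count tables of 12 libraries, 10 genes of the 21493 listed in each table, and all 10 had enough reads to be tested. The starting gene, Pparg, had been chosen by its measured counts, as 1 of 3 genes called for swimming in desmin-null cardiomyocytes (0.0228% of all genes tested, all 3 higher), so the values in that comparison are given as a description without a test. Poly-A RNA came from adult cardiomyocytes freed from the heart by enzymatic perfusion, in mice that were 3 months old. The 4 groups of 3 libraries were Des+/+ non-swim (both copies of the desmin gene, no exercise), Des+/+ swim (the same genotype after swimming exercise), Des-/- non-swim (no desmin, no exercise) and Des-/- swim (no desmin, after swimming exercise). Desmin is the intermediate filament protein of muscle, and the Des-/- mice lack its gene in every cell and not in cardiomyocytes alone. Each library pooled the cells of several mice, as the methods of the study state, so the spread between libraries is a spread between pools.

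The adult heart takes most of its fuel from fatty acids. Lipoprotein lipase (Lpl), made mainly by cardiomyocytes, is carried to the inner face of the capillary by Gpihbp1 on endothelial cells, where it cuts triglycerides of circulating lipoproteins into fatty acids. These cross the endothelium and enter cardiomyocytes with the help of the scavenger receptor Cd36 and of small carrier proteins of the cytoplasm, Fabp4 and Fabp5 in endothelium and Fabp3 in cardiomyocytes. PPARγ pairs with a retinoid X receptor (RXR) and switches on lipid-handling genes such as Fabp4 and Cd36 when it binds a fatty acid ligand. It is best known as the master regulator of fat cells, and it is also made by capillary endothelium. Meox2 and Tcf15 are transcription factors that act together in heart endothelium on fatty acid uptake genes, and Adipoq encodes adiponectin, a hormone secreted by fat cells.

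Reads assigned to genes ranged from 4320819 to 12072443 per library. All levels below are normalized counts (CPM), the reads of a gene relative to all reads in genes of its library, after scaling by the trimmed mean of M-values (TMM). Desmin itself lay at 973 to 3647 CPM in the 6 Des+/+ libraries and at 50.3 to 101 CPM in the 6 Des-/- libraries. The preparations were not pure: next to 15 cardiomyocyte markers summing to 7840 to 116162 CPM, 20 endothelial markers summed to 7543 to 17379 CPM. In bulk RNA, fewer cells of a type and less RNA per cell cannot be told apart. The Des-/- non-swim replicate 3 stood apart, with macrophage markers summing to 5692 CPM against 263 to 403 CPM in the Des+/+ non-swim libraries, and with the lowest cardiomyocyte sum.

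The RefSeq start regions of Pparg are shown here, 3 in number, because the counts cover the gene as a whole and cannot say which of these starts was used. The RefSeq table (build GRCm38.p6) held windows of 300 bases, from 250 bases before to 50 bases after a transcript start, for 5 of the 10 genes. The windows of Cd36, a known PPAR target, and of Fabp3, the gene with the largest difference between genotypes, stand beside them. Each is written 5′ to 3′ on the strand of its gene, and capitals mark AGGTCA, the half-site that PPAR and RXR bind, or its reverse complement.
Pparg, chr6:115360894-115361193, plus strand: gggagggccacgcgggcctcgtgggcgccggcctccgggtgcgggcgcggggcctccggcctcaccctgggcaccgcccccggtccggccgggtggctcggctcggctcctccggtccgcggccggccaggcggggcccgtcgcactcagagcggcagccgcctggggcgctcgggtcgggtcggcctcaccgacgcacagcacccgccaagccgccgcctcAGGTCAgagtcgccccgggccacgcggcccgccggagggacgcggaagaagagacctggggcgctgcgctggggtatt
Pparg, chr6:115362099-115362398, plus strand: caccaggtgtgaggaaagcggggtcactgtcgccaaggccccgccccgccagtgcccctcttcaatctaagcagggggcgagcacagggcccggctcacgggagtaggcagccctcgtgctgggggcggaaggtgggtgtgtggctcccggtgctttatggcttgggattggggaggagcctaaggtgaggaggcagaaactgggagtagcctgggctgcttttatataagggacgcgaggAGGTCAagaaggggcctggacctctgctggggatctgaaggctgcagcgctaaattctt
Pparg, chr6:115421816-115422115, plus strand: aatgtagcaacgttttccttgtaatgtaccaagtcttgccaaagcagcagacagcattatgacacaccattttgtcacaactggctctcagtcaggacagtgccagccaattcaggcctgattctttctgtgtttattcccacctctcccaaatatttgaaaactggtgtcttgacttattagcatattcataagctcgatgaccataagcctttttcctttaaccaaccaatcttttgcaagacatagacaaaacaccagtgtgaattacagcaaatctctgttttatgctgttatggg
Cd36, chr5:17835847-17836146, minus strand: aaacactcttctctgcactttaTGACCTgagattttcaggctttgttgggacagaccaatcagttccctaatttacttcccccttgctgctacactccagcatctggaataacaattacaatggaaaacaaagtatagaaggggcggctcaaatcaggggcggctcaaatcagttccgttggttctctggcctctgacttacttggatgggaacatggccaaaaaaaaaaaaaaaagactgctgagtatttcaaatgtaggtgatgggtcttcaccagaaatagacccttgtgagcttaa
Fabp3, chr4:130308488-130308787, plus strand: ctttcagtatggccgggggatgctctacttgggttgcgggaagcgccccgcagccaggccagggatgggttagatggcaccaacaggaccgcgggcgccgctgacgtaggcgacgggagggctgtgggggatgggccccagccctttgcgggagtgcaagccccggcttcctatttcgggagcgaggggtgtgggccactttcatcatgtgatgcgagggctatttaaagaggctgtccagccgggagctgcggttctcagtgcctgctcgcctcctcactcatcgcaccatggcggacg
AGGTCA, searched on both strands, stood once in the first and second Pparg windows and once in the Cd36 window, and the third Pparg window and those of Fabp3, Meox2 and Adipoq held none. Of all 32851 promoter windows of the same length 16.3% held it, against 3 of these 7. The full PPAR-RXR pattern, 2 half-sites 1 base apart written as AGGTCANAGGTCA, was in 0 of the 7 windows and in 0.0396% of all windows. A match is a match of letters only, and distant regulatory sequence lies outside these windows.

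Pparg (ENSMUSG00000000440, chr6:115360951-115490399 in GRCm38, plus strand) rose with swimming in Des+/+ cardiomyocytes to more than double its level. The Des+/+ non-swim libraries held 42.9, 40.8 and 46.6 CPM, and the Des+/+ swim libraries held 93.1, 113 and 95.2 CPM. No library of one group reached the range of the other, and the gap between them was wider than the spread within either. The mean went from 43.4 ± 2.97 to 100.4 ± 10.9 CPM (SD, n = 3 each), a log2 change of 1.21 (SE 0.13, 2.31-fold, adjusted p = 0.0092 by edgeR's quasi-likelihood test with Benjamini-Hochberg adjustment). It was the only one of the 10 genes called in this comparison, in which 0.0912% of the 13158 genes tested were called. The fit that chose Pparg held all 12 libraries, so the Des+/+ libraries had a part in its scaling and its estimate of spread. With only the 6 Des+/+ libraries in the fit the log2 change was 1.28 and the edgeR adjusted p was 0.017. The size moved little when any library was left out, from 1.11 to 1.26, but the edgeR call was lost without Des+/+ non-swim replicate 1, 2 or 3 (adjusted p = 0.0676, 0.0644 and 0.0521) and without Des+/+ swim replicate 3 (adjusted p = 0.0612).

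The Des-/- libraries, which served to choose the gene, showed the same separation. Pparg stood at 46.1, 44.1 and 38.0 CPM in the Des-/- non-swim libraries and at 78.5, 94.9 and 80.5 CPM in the Des-/- swim libraries. Again every swim library lay above every non-swim library, and the log2 change was 0.98 (SE 0.13, 1.98-fold). The difference between the changes of the genotypes was −0.22 (SE 0.18), little more than its error. Differences of Pparg between genotypes were smaller than those with swimming: Des-/- against Des+/+ gave −0.02 (SE 0.13) without swimming and −0.25 (SE 0.13) after it. Both use Des-/- libraries that served to choose the gene, so they are given as a description. In order of level the groups ran Des+/+ swim, Des-/- swim (84.6 ± 8.95 CPM), Des+/+ non-swim and Des-/- non-swim (42.7 ± 4.20 CPM), and in each neighbouring pair that shares a swimming state the libraries overlapped.

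**Figure D1:**
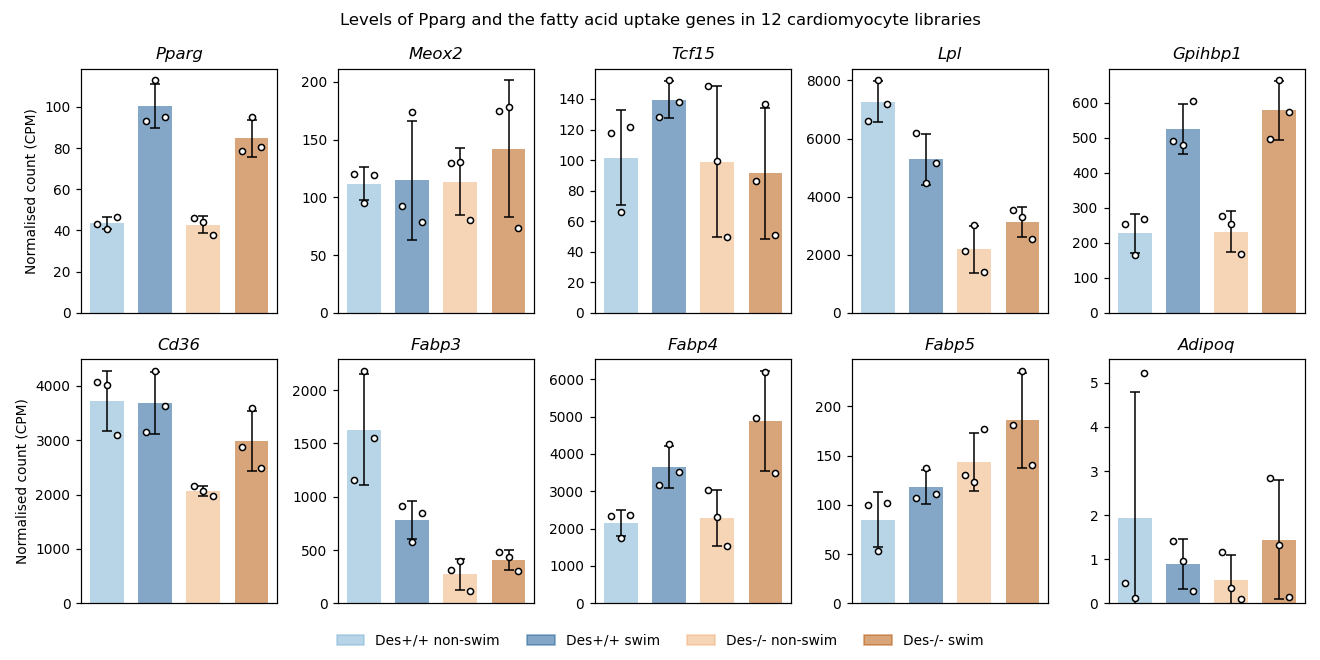
Normalized counts (CPM, axes from 0) of the 10 genes in the 4 groups, with each library as a point, bars for the mean and error bars for the SD over 3 libraries. Pparg and Gpihbp1 sit higher in both swim groups than in both non-swim groups, while the means of Lpl and Fabp3 are highest in Des+/+ non-swim and lowest in Des-/- non-swim.

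At the capillary, the transcripts of the lipase and of its endothelial carrier followed different patterns. Gpihbp1 (ENSMUSG00000022579, chr15:75596628-75599481, plus strand) held 253, 165 and 267 CPM in the Des+/+ non-swim libraries, and 492, 479 and 607 CPM in the Des+/+ swim libraries. All 3 swim libraries lay above all 3 non-swim libraries, and the log2 change of 1.20 (SE 0.24, 2.30-fold) was as large as that of Pparg. It did not pass the threshold over all genes (edgeR adjusted p = 0.0589, unadjusted p = 3e-04), whereas DESeq2 called it (adjusted p = 8.12e-05). In Des-/- cardiomyocytes Gpihbp1 stood at 277, 253 and 168 CPM without swimming and at 497, 665 and 574 CPM after it, with no overlap and a log2 change of 1.32 (SE 0.24). Between genotypes the libraries overlapped, with log2 changes of 0.03 (SE 0.23) without swimming and 0.14 (SE 0.23) after it, neither called.

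Lpl (ENSMUSG00000015568, chr8:68880491-68907448, plus strand) fell in unexercised Des-/- cardiomyocytes well below its level in Des+/+. It held 6608, 8009 and 7189.5 CPM in the Des+/+ non-swim libraries and 2126, 3022 and 1426 CPM in the Des-/- non-swim libraries. The lowest Des+/+ library was above the highest Des-/- library by a wide margin, and the log2 change was −1.73 (SE 0.30, 3.32-fold lower, edgeR adjusted p = 0.00191). After swimming Lpl stood at 6204, 4471 and 5171 CPM in Des+/+ and at 3532, 3302 and 2561 CPM in Des-/-. Those libraries did not overlap either, but the log2 change of −0.75 (SE 0.29) was not called (edgeR adjusted p = 0.11). The genotypes drew nearer from both sides: the log2 change with swimming was −0.46 (SE 0.29, edgeR adjusted p = 0.386) in Des+/+ and 0.52 (SE 0.29, given without a test) in Des-/-, which differ by 0.98 (SE 0.41). For such a difference of swimming changes edgeR called 0 of the 13158 genes tested.

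Among the carriers inside the cell, Fabp3 (ENSMUSG00000028773, chr4:130308595-130315463, plus strand), the heart-type fatty acid binding protein, had the largest genotype difference of the 10 genes. The Des+/+ non-swim libraries held 1159, 2183 and 1548 CPM, and the Des-/- non-swim libraries held 311, 394 and 114 CPM. The groups were far apart, although the libraries within each differed widely, and the log2 change was −2.58 (SE 0.42, 5.97-fold lower, edgeR adjusted p = 0.00146). After swimming Fabp3 was at 915, 575 and 851 CPM in Des+/+ and at 481, 432 and 305 CPM in Des-/-. The groups still did not overlap, and the log2 change of −0.94 (SE 0.40) was not called (edgeR adjusted p = 0.139). The log2 change with swimming was −1.06 (SE 0.40, edgeR adjusted p = 0.178) in Des+/+ and 0.57 (SE 0.40, without a test) in Des-/-, and the difference between them, 1.64 (SE 0.57), was the largest of the members other than the sparsely counted Adipoq. All 15 cardiomyocyte markers also had such a difference above 0, with a median of 1.38, and edgeR called 0 of all genes tested for it. The Fabp3 exons share 81 bases with Zcchc17 on the opposite strand, and processed copies of Fabp3 and Fabp5 lie elsewhere in the genome, so reads of these genes may be split in counting.

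Cd36 (ENSMUSG00000002944, chr5:17781690-17888801, minus strand), the membrane receptor for long-chain fatty acids, fell with the loss of desmin in unexercised cardiomyocytes. It held 4072, 4014 and 3086 CPM in the Des+/+ non-swim libraries and 2152, 2069.7 and 1966 CPM in the Des-/- non-swim libraries. The Des-/- libraries were tightly grouped and all below the Des+/+ range, and the log2 change was −0.85 (SE 0.22, 1.81-fold lower, edgeR adjusted p = 0.0148). Scaling by library totals gave −0.59 (edgeR adjusted p = 0.0639), but that scaling moved the median of all genes from 0.04 to 0.29, and relative to that median Cd36 stood at −0.89. With only the 6 libraries compared the log2 change was −0.83 (edgeR adjusted p = 0.0617). In the swim libraries Cd36 was at 3149.9, 4271 and 3618 CPM in Des+/+ and at 2875, 3591 and 2495 CPM in Des-/-, and these ranges overlapped (log2 change −0.30, SE 0.22, not called).

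Fabp4 (ENSMUSG00000062515, chr3:10204088-10208576, minus strand), the adipocyte-type binding protein that capillary endothelium also makes, did not separate the genotypes. It held 2342, 1738 and 2372 CPM in the Des+/+ non-swim libraries and 3163, 4259.6 and 3507 CPM in the Des+/+ swim libraries. The swim libraries were all above the non-swim libraries, with a log2 change of 0.76 (SE 0.30) that was not called (edgeR adjusted p = 0.194, unadjusted p = 0.0278). In Des-/- it was at 3038, 2306 and 1534 CPM without swimming and at 4954, 6191 and 3496 CPM after it, again without overlap (log2 change 1.09, SE 0.30). The log2 change with genotype was 0.09 (SE 0.30) without swimming and 0.42 (SE 0.30) after it.

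Fabp5 (ENSMUSG00000027533, chr3:10012548-10016607, plus strand), the epidermal-type binding protein, was the only member called higher without desmin. The Des+/+ non-swim libraries held 100.1, 52.9 and 102 CPM, and the Des-/- non-swim libraries held 131, 123 and 177 CPM. The groups did not overlap, but 1 low Des+/+ library and 1 high Des-/- library made much of the distance, and the log2 change was 0.76 (SE 0.27, 1.69-fold, edgeR adjusted p = 0.048). The edgeR call was lost in 9 of the 12 fits that left out a library, namely without any single Des+/+ library, without Des-/- non-swim replicate 1 or 3 and without Des-/- swim replicate 1. The largest of those adjusted p-values, 0.164 in edgeR, came without Des-/- non-swim replicate 3, the library rich in macrophage markers, where the log2 change was 0.58. The smallest log2 change, 0.51 (edgeR adjusted p = 0.15), came without Des+/+ non-swim replicate 2, the low Des+/+ library. After swimming Fabp5 was at 107, 138 and 111 CPM in Des+/+ and at 181, 236 and 140.2 CPM in Des-/-, with no overlap and a log2 change of 0.65 (SE 0.27, edgeR adjusted p = 0.126).

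The endothelial transcription factors Meox2 (ENSMUSG00000036144, chr12:37108540-37179534, plus strand) and Tcf15 (ENSMUSG00000068079, chr2:152143561-152149097, plus strand) did not pass the test in any of the 3 tested comparisons. Meox2 spanned 95.2 to 120.2 CPM in Des+/+ non-swim, 78.6 to 174 CPM in Des+/+ swim, 80.3 to 131 CPM in Des-/- non-swim and 73.7 to 178 CPM in Des-/- swim. Tcf15 spanned 66.1 to 121 CPM, 128 to 152 CPM, 49.6 to 148 CPM and 51.3 to 137 CPM in the same groups. Both varied more among libraries of a group than between groups, apart from Tcf15 in the swum Des+/+ libraries, which lay just above the unexercised ones (log2 change 0.46, SE 0.40, edgeR adjusted p = 0.541). Within the groups Tcf15 and Fabp4 varied together: the correlation of their log2 deviations from the group means was 0.98 over 12 libraries, which share their depth and cell makeup. This pair is named because its value was the highest among all pairs of members, ahead of Lpl and Fabp3 at 0.94.

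Adipoq (ENSMUSG00000022878, chr16:23146536-23158028, plus strand) was near the limit of detection, with 128 reads in all libraries together. It had 1 to 58 reads per library, and the highest, Des+/+ non-swim replicate 3, stood at 5.23 CPM against at most 2.84 CPM elsewhere. That library also held the most reads of several other fat cell transcripts, among them 87 of Plin1, 249 of Cfd, 90 of Cidec and 25 of Retn. It did not for Lipe, Fasn and Trarg1, with 1715, 707 and 88 reads against up to 2200, 859 and 147 in other libraries. In the remaining 11 libraries Plin1 had 0 to 14 reads, and the fat hormone gene Lep had 0 to 4 reads in any library. Of 14 adipocyte markers 8 were tested, and edgeR and DESeq2 called 0 in each of the 3 tested comparisons, with 0 to 2 at an unadjusted p under 0.05 in edgeR. In Des+/+ non-swim replicate 3 Pparg stood at 46.6 CPM, the highest of the non-swim libraries and below every swim library.

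Over the 10 genes, 4 were called between genotypes without swimming, Lpl, Cd36 and Fabp3 lower and Fabp5 higher, where 32% of all genes tested were called, 14% higher and 18% lower, and 43.7% had an unadjusted p under 0.05. The same 4 did not overlap between the genotypes, where 47.9% of all genes did not, 23% higher and 24.9% lower. The members' shares were thus close to the background of this comparison. After swimming 0 of the 10 were called between genotypes by edgeR, against 10.6% of all genes, 5.01% higher and 5.57% lower. An unadjusted p under 0.05 was reached by 3, Lpl, Fabp3 and Fabp5, against 30.5% of all genes, the same 3 did not overlap, against 35.9%, and DESeq2 called 1, Lpl. Without Des-/- non-swim replicate 3 in the fit edgeR called 2, Lpl (adjusted p = 0.0439) and Fabp3 (adjusted p = 0.0384). With swimming in Des+/+ 7 of the 10 did not overlap between the groups, 5 higher and 2 lower, where 31.3% of all genes did not overlap, 12.5% higher and 18.7% lower. An unadjusted p under 0.05 was reached by 4 of the 10, Pparg, Gpihbp1, Fabp3 and Fabp4, against 20.5% of all genes. In Des-/-, where 10.4% of all genes lay higher without overlap, Pparg, Gpihbp1, Cd36 and Fabp4 did so, a count that the choice of Pparg from this comparison touches. The share of reads outside genes moved with swimming too, from 34.0–39.3% to 45.9–50.4% in Des+/+ and from 34.2–52.3% to 57.2–64.5% in Des-/-, and its part in these changes was not tested.

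**Figure D2:**
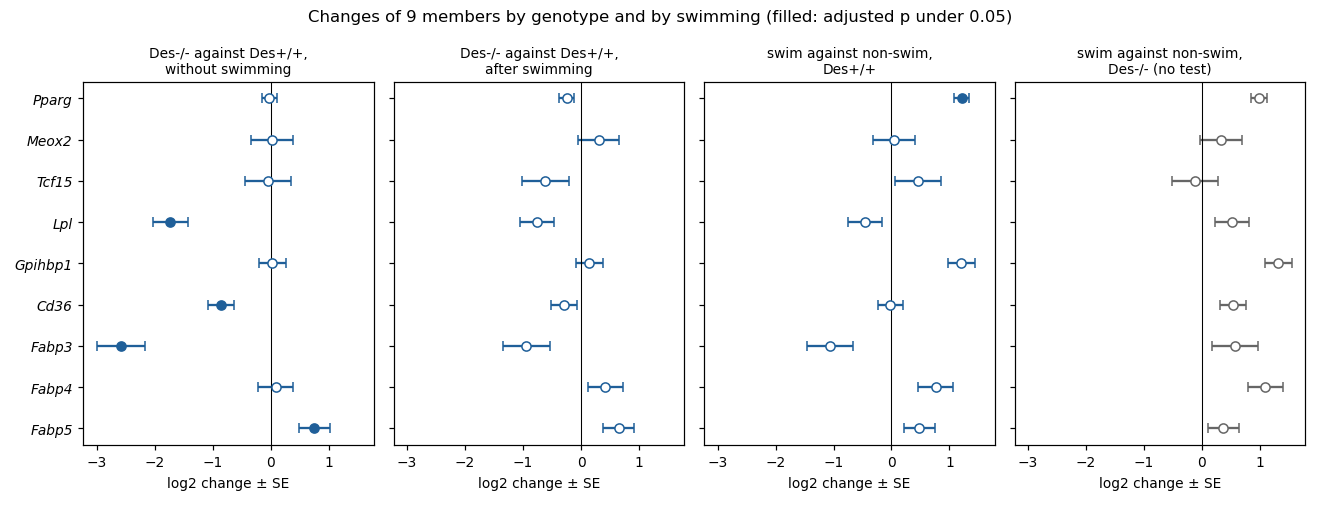
Log2 change from the edgeR fit, with the SE derived from its test, for 9 of the genes in 4 comparisons. Points are filled where the adjusted p is under 0.05 and grey where no test is given (Adipoq, with SEs above 1, is left out). Pparg is filled only for swimming in Des+/+, at 1.21, and Lpl, Cd36, Fabp3 and Fabp5 are filled only for genotype without swimming.

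Levels of endothelial and cardiomyocyte transcripts as a whole moved with the same groups. The 20 endothelial markers summed to 9594–11297 CPM in Des+/+ non-swim, 13123–17379 CPM in Des+/+ swim, 7543–12158 CPM in Des-/- non-swim and 12424–14872 CPM in Des-/- swim. With swimming in Des+/+, 18 of the 20 had a log2 change above 0, with a median of 0.47, and edgeR called 0 of them, with 7 at an unadjusted p under 0.05, while DESeq2 called 5. Pparg was therefore also set against this sum, and per 100 CPM of endothelial markers it held 0.380 to 0.425 CPM in Des+/+ non-swim and 0.650 to 0.709 CPM in Des+/+ swim. In Des-/- the ratio was 0.379 to 0.504 without swimming and 0.570 to 0.648 after it, values that belong to the comparison that chose Pparg and are given as a description. In Des+/+ the mean ratio was 0.407 without swimming and 0.673 after it, a smaller relative difference than that of the CPM. Gpihbp1 per 100 CPM of endothelial markers went from 1.72–2.38 to 2.75–4.20 CPM in Des+/+ and from 2.22–2.45 to 3.61–4.62 CPM in Des-/-. Fabp4 went from 18.1–21.1 to 24.1–24.5 CPM and from 20.3–25.0 to 28.1–41.6 CPM on the same scale. The Des+/+ means of Fabp4 on this scale were 19.99 and 24.3, also nearer to each other than the CPM. The ranges of Pparg, Gpihbp1 and Fabp4 did not overlap between swim and non-swim libraries of a genotype. Those of Meox2, Tcf15 and Fabp5 on this scale overlapped in both genotypes. Without and with swimming in Des+/+ the mean ratios were 1.04 and 0.750 for Meox2, 0.937 and 0.937 for Tcf15, and 0.782 and 0.791 for Fabp5. The part of endothelial content in the changes of these genes was not tested beyond these ratios.

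The cardiomyocyte markers told apart the genotypes as Lpl and Fabp3 did. Their sum was 76506–116162 CPM in Des+/+ non-swim, 38346–62432 CPM in Des+/+ swim, 7840–35569 CPM in Des-/- non-swim and 19503–32467 CPM in Des-/- swim, and all 15 were called lower in Des-/- without swimming. Per 100 CPM of these markers, Fabp3 held 1.52 to 1.89 CPM in Des+/+ non-swim and 1.11 to 1.87 CPM in Des-/- non-swim. After swimming the ratio was 1.47 to 1.58 in Des+/+ and 1.33 to 1.56 in Des-/-, so the genotypes overlapped in both states. Lpl per 100 CPM of cardiomyocyte markers was 6.90 to 8.77 CPM in Des+/+ non-swim and 8.50 to 18.2 CPM in Des-/- non-swim. On this scale Lpl was no longer lower without desmin, and Cd36, at 3.46 to 5.32 CPM and 5.82 to 25.1 CPM in those groups, was higher in every Des-/- library. Per 100 CPM of endothelial markers, Cd36 was instead lower in every Des-/- non-swim library. It held 27.5 to 41.8 CPM in Des+/+ non-swim and 17.7 to 26.1 CPM in Des-/- non-swim on that scale. Fibroblast markers moved opposite to the cardiomyocyte markers between genotypes, with 13 of 14 called higher in Des-/- non-swim. The part of this shift in makeup in the lower Lpl, Fabp3 and Cd36 was not tested beyond these ratios.

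**Figure D3:**
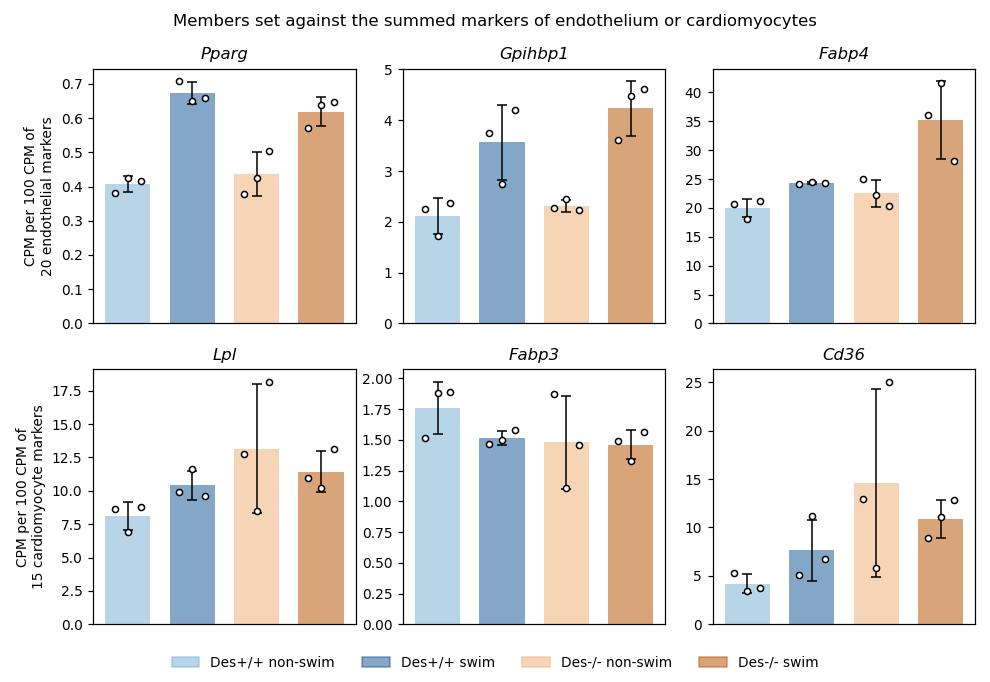
Upper row, CPM of Pparg, Gpihbp1 and Fabp4 per 100 CPM of 20 summed endothelial markers, and lower row, CPM of Lpl, Fabp3 and Cd36 per 100 CPM of 15 summed cardiomyocyte markers, with points for libraries and bars and error bars for the mean and SD of 3. The upper ratios are higher in swim than in non-swim libraries of the same genotype, and Fabp3 in the lower row lies between 1.11 and 1.89 in every library.

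Outside the 10 members, the genes whose log2 CPM followed Pparg most closely over the 12 libraries were Robo4 (Pearson r = 0.95), Slc43a3 (r = 0.95), B4galt4 (r = 0.93), Timp3 (r = 0.93) and Tinagl1 (r = 0.93). Robo4 is a receptor of endothelial cells, and Timp3 is an inhibitor of matrix metalloproteinases. Robo4 stood at 205 to 256 CPM in Des+/+ non-swim and 366 to 419.9 CPM in Des+/+ swim, and at 200.2 to 275 CPM and 303 to 381 CPM in the Des-/- groups. Timp3 went from 761–1242 to 2450–3752 CPM in Des+/+, and from 619.7–1002 to 1726–1883 CPM in Des-/-. The 5 were chosen for following Pparg over these libraries, so a rise with swimming goes with the choice. Their changes are given as a description. Tinagl1 had a log2 change of 1.66 (SE 0.22) with swimming in Des+/+. For Des-/- against Des+/+ after swimming it had −0.75 (SE 0.21). For deviations from the group means, the correlation with Pparg was 0.83 for Robo4, 0.86 for Slc43a3 and 0.63 for B4galt4. It was 0.44 for Timp3 and 0.18 for Tinagl1. Among the members Gpihbp1 was nearest to Pparg, with r = 0.93, just above Timp3 and Tinagl1, and rank 5 of all 13158 genes counting Pparg itself, followed by Fabp4 with r = 0.84 and rank 80. Lpl (r = 0.11) and Fabp3 (r = 0.01) did not follow Pparg, but followed each other with r = 0.98. These correlations rest on 4 groups of libraries that share depth and cell makeup, and are given as a description.

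Levels can be compared between genes only per transcript length, here CPM per kilobase of the longest principal transcript. On that scale Fabp4 had the highest mean of the 10 in all 4 groups, with 5447 ± 1506 in Des-/- swim and 2400.2 ± 399 in Des+/+ non-swim (SD over 3 libraries). In the latter group it was followed by Fabp3 (1980.3 ± 628), Lpl (1766 ± 171) and Cd36 (1096 ± 163). The mean of Lpl lay within the SD of Fabp3, but that of Fabp3 lay outside the SD of Lpl. In replicate 2 of that group Fabp3 (2652) and Lpl (1946.4) stood above Fabp4 (1939.4). In Des-/- non-swim Fabp3 had dropped (332 ± 174) behind Cd36 (607 ± 27.4) and Lpl (533 ± 195). Pparg came eighth or ninth in each group, at 24.6 ± 1.68 in Des+/+ non-swim and 56.8 ± 6.16 in Des+/+ swim, and Adipoq came last in all 4.

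The wider pathway was described with 4 lists of 101 further genes, of which 86 were tested: PPAR and RXR receptors with their cofactors, PPAR target genes, genes of uptake, activation and storage, and genes of capillary lipolysis and lipoproteins. Without swimming 45 of the 86 were called between genotypes, 42 lower and 3 higher in Des-/-, that is 52.3% against 32% of all genes, and their median log2 change was −0.52 against 0.04 over all genes. After swimming 6 were called lower and 3 higher, 10.5% against 10.6% of all genes. That count fell to between 0 and 5 without any single swim library and reached 21 without Des-/- non-swim replicate 3. With swimming in Des+/+ 0 were called by edgeR, with a median of −0.30 against −0.08 over all genes, while 24 had an unadjusted p under 0.05 and DESeq2 called 6.

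PPAR target genes were the list with the most calls, 17 of 25 lower in Des-/- without swimming and 0 higher, with a median log2 change of −2.04. Pdk4, the kinase that restrains glucose oxidation, had a mean of 448 CPM in Des+/+ non-swim and 33.5 CPM in Des-/- non-swim (log2 change −3.74, SE 0.43, edgeR adjusted p = 0.000774). Slc25a20, the mitochondrial carnitine carrier, went from 171 to 42.5 CPM (−2.01, SE 0.29, edgeR adjusted p = 0.00104). After swimming Acadl and Acadm, dehydrogenases of fatty acid oxidation, remained called lower in Des-/- (−1.55, SE 0.35 and −1.60, SE 0.41, edgeR adjusted p = 0.0226 and 0.0325). Many of these targets serve oxidation in cardiomyocytes and are shared with PPARα and the estrogen-related receptors, and they moved beside the cardiomyocyte markers described above.

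Of 19 receptors and cofactors, 7 were called lower and 0 higher in Des-/- without swimming. They included the RXR gene Rxrg, from 66.6 to 10.4 CPM (log2 change −2.69, SE 0.41, edgeR adjusted p = 0.0012), and the orphan receptor gene Esrra (−1.56, SE 0.18, edgeR adjusted p = 0.000787). After swimming 2 were called lower, the coactivator Ncoa3 (−0.57, SE 0.14, edgeR adjusted p = 0.0297) and Lpin1, a phosphatase that also acts as a coactivator (−1.15, SE 0.31, edgeR adjusted p = 0.04). Ncoa3 had means of 129 CPM and 209.9 CPM in Des+/+ without and with swimming and of 121 CPM and 141 CPM in Des-/-.

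Of 27 tested genes of uptake, activation and storage, 13 were called lower and 1 higher in Des-/- without swimming. Fitm2, needed for lipid droplet budding, fell (log2 change −2.57, SE 0.32, edgeR adjusted p = 0.00082), as did Got2, a mitochondrial aminotransferase also described as a fatty acid binding protein of the membrane (−2.11, SE 0.34, edgeR adjusted p = 0.00135). Slc27a3, of the fatty acid transport protein family, rose in Des-/- without swimming (1.11, SE 0.29, edgeR adjusted p = 0.0145) and after it (1.10, SE 0.30, edgeR adjusted p = 0.039), at means of 5.52 to 13.5 CPM.

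Of 15 tested genes of capillary lipolysis and lipoproteins, 5 were called lower and 2 higher in Des-/- without swimming. Vegfb, a growth factor that acts on endothelial fatty acid transport, fell (log2 change −2.10, SE 0.30, edgeR adjusted p = 0.000969), and so did Vldlr, a lipoprotein receptor (−2.44, SE 0.44, edgeR adjusted p = 0.00229). The lipoprotein receptor Lrp1 (1.76, SE 0.32, edgeR adjusted p = 0.00263) and Apoe (1.43, SE 0.32, edgeR adjusted p = 0.00683), genes that macrophages and fibroblasts express strongly, rose. After swimming Apoe was still called higher (1.30, SE 0.32, edgeR adjusted p = 0.0287), and Vldlr (−1.50, SE 0.43, edgeR adjusted p = 0.0461) and the adiponectin receptor gene Adipor2 (−0.53, SE 0.13, edgeR adjusted p = 0.0282) lower.

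**Figure D4:**
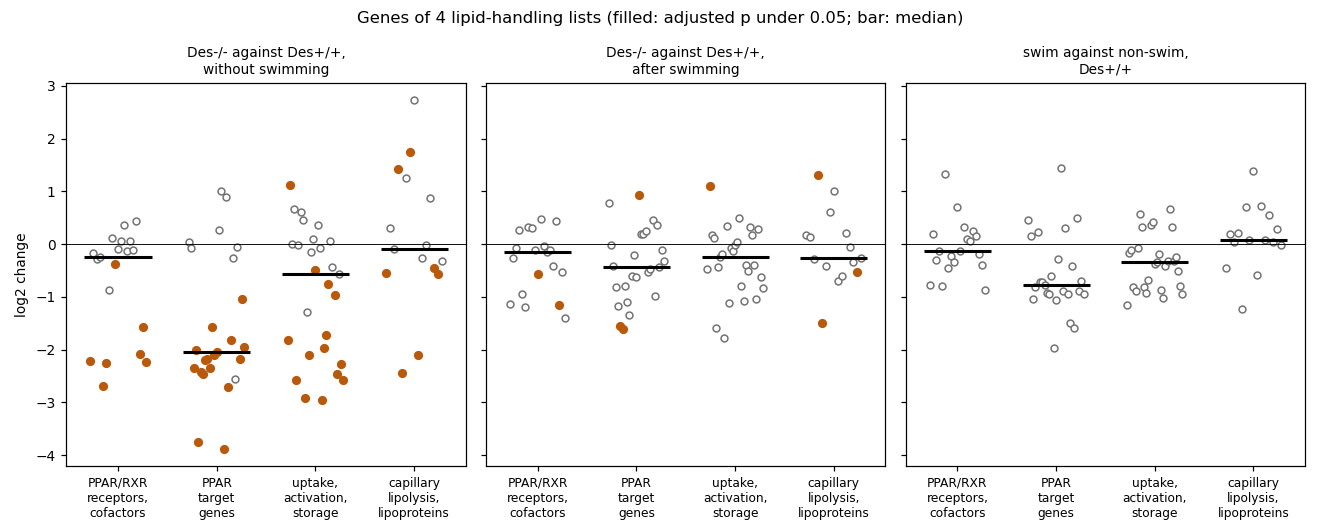
Log2 change of each tested gene of the 4 pathway lists in the 3 tested comparisons, filled where the edgeR adjusted p is under 0.05, with a bar for the median of each list. Most filled points lie below 0 in the comparison of genotypes without swimming, where the PPAR target list has its median at −2.04, and no point is filled for swimming in Des+/+.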

How the data were processed

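RNA of adult cardiomyocytes was measured by poly-A RNA sequencing with single-end reads in 12 libraries. The deposited values are raw counts of reads per gene and library, which the authors made with HISAT2 2.2.1, SAMtools 1.13 and HTSeq-count in its reverse-strand mode on build GRCm38 and did not normalize. The version of HTSeq and its annotation are not given in the sources used here, and the labels and the study's methods name different library kits, of which the labels' kit does not mark strand. Groups and replicate numbers were taken from the sample titles. Rows that name no gene held 34.0–64.5% of the uniquely aligned reads and stayed out of library sizes.

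The counts were analyzed in R 4.3.3 with edgeR 4.0.16 (filterByExpr, TMM, quasi-likelihood test on 4 group means over all 12 libraries, 8 residual degrees of freedom), tested beforehand on simulated data. Of 21493 genes 13158 were tested, p-values were adjusted over all of them, and calls needed an adjusted p below 0.05. Each SE was derived from the test, as the absolute log2 change divided by the square root of the quasi-likelihood F statistic. The study used DESeq2, which served here (1.42.0) as an alternative, beside 3 other scalings, no filter, a mean count of at least 20, the replicate number as a block, only the 6 libraries compared, and leaving out each library. Read depth was 4320819 to 12072443 per library, and precision was limited by 3 libraries per group, with a common biological coefficient of variation of 0.271. P-values set each difference against the spread between these pooled libraries, as estimated over all 4 groups. Positions and lengths came from GENCODE M21 and promoter windows from RefSeq.

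Same-numbered libraries deviated most alike in every pair only for swimming in Des-/- (correlations 0.365, 0.316 and 0.602), where the block gave Pparg a log2 change of 0.98. Between genotypes after swimming the correlations were 0.0189, 0.125 and 0.116. The members and lists were chosen with earlier results of these data known. Named in the text are the 10 members, for each list and tested comparison at most 2 called genes per direction with the smallest p and a mean count of at least 20, and the 5 genes outside the members most correlated with Pparg. A gene that this rule names is not reported here. Genes named after their values were seen are Plin1, Cfd, Cidec, Retn, Lep, Lipe, Fasn and Trarg1.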

Additional observations from a re-analysis of the deposited data

Results flagged for a closer look

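Reads that fell in no gene, which none of the comparisons used, made up more of the swum libraries than of the unexercised ones in Des+/+. Their lowest share was 45.9% in a Des+/+ swim library and 57.2% in a Des-/- swim library, above the highest share of 39.3% in the Des+/+ non-swim libraries. The part of this share in the values of Pparg and Gpihbp1 was not tested.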

How the results depend on the processing

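With DESeq2, 2332 genes, 1 member and 21 pathway genes were called between genotypes after swimming, 812 genes, 2 members and 6 pathway genes with swimming in Des+/+, 339 genes with swimming in Des-/- and 328 for the difference of the swimming changes, against 1392, 0, 9, 12, 1, 0, 3 and 0. For swimming in Des+/+ the genes called were 54 with RLE scaling, 26 with library totals, 58 with 2 members without a filter, 19 with the replicate block, and 282 with 2 members and 4 pathway genes in the 6 libraries compared. The second member there was Gpihbp1. For swimming in Des-/- they were 7 without a filter, 2 with the replicate block and 0 in the 6 libraries compared, where the members called between genotypes without swimming were 2, Lpl and Fabp3.

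With each library left out in turn, between genotypes without swimming 2612 to 4590 genes were called, and after swimming 74 to 2142 genes, 0 to 2 members and 0 to 21 pathway genes. For swimming in Des+/+ these were 0 to 155 genes, 0 to 2 members and 0 to 1 pathway genes, and in Des-/- 0 to 51 genes. Gene counts moved by over 1.5 times without Des+/+ non-swim replicate 2 or Des-/- non-swim replicate 3 for the first of these, without any single swim library or Des-/- non-swim replicate 3 for the next, without any library but Des-/- non-swim replicate 1 for swimming in Des+/+, and without Des-/- non-swim replicate 1 or 2 or Des-/- swim replicate 3 for swimming in Des-/-.

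Values near 0 changed sign. Between genotypes without swimming, Pparg was 0.079 with upper-quartile scaling, 0.234 with library totals and 0.0378 without a filter, Tcf15 was 0.0673, 0.222 and 0.0201, and Meox2 was −0.0589 with the replicate block. Cd36 with swimming in Des+/+ was 0.0033 with RLE scaling and with DESeq2, 0.0813 with library totals, 0.025 without a filter and 0.0557 in the 6 libraries compared, and Meox2 there was −0.0646 with the replicate block. Leaving out libraries gave ranges between genotypes without swimming of −0.0859 to 0.0567 for Pparg, −0.45 to 0.29 for Tcf15, −0.0903 to 0.226 for Meox2, −0.16 to 0.22 for Gpihbp1, −0.17 to 0.32 for Fabp4 and −3.21 to 0.79 for Adipoq, of −0.41 to 1.22 for Adipoq after swimming, and with swimming in Des+/+ of −0.139 to 0.0831 for Cd36, −0.39 to 0.25 for Meox2 and −1.66 to 1.57 for Adipoq. The cause was not tested.

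The replicate block, which ties libraries by number in every comparison, changed no member's call except that of Fabp5 between genotypes without swimming (log2 change 0.76, edgeR adjusted p = 0.071). Outside swimming in Des-/-, not every library deviated most like its same-numbered one. Upper-quartile scaling and library totals raised the share of higher genes among those called between genotypes from 43.7% to 55.1% and 69.9% without swimming and from 47.3% to 67.5% and 77.1% after it. Depth limits Adipoq alone among the members, and with 3 pooled libraries per group small changes of the others were not detectable.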
